A study of Mus musculus with 8 samples.

Results

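The SLAM family receptors are 7 immunoglobulin-superfamily genes of leukocytes, Slamf1, Slamf6, Slamf7, Cd48, Cd84, Cd244a and Ly9, measured here in sorted splenic B cells. They were taken by name from the platform annotation, 7 of the 19937 genes that had a probe set assigned to 1 symbol. Where a gene had several probe sets the one with the highest mean over the 8 arrays would represent it, but each receptor had only 1, so this rule made no choice among them. The family was proposed with earlier results of these arrays known, so its members and their differences are given as a description and are not independent evidence of a direction.

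Sca1-HGAL mice carried human HGAL, a germinal centre adaptor protein, under the Sca1 (Ly-6E.1) promoter, and are called transgenic in the series text and knock-in in the sample labels. Sca1 is a surface protein of haematopoietic stem cells and of many later blood cells, so the promoter is not restricted to B cells. The Control mice were wild-type littermates. Both groups were adult, on a mixed CBAxC57BL/6J background, and both gave spleen cells sorted as CD22+B220+ B cells, whose total RNA was read on Mouse Gene 1.0 ST arrays of Affymetrix, with 4 arrays for Sca1-HGAL and 4 for Control. Nothing in the labels ties an array to a single mouse, so p-values reflect the spread among arrays, which may be technical. Sex and batch are not given.

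SLAM receptors are adhesion and signalling molecules that mostly bind a copy of themselves on a neighbouring cell, and so act where lymphocytes touch each other, for example when T cells help B cells in the germinal centre. CD48 and CD244 instead bind one another. Most members carry immunoreceptor tyrosine-based switch motifs in the tail, which recruit the small adaptors SAP and EAT-2 and through SAP the kinase Fyn, or, where the adaptors are lacking, inhibitory phosphatases. All 7 genes lie side by side in a cluster on mouse chromosome 1, which is polymorphic between inbred strains.

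Levels are log2 RMA intensities, given as mean ± SD over 4 arrays, and a log2 fold is the Sca1-HGAL mean minus the Control mean with its standard error (SE) from limma. The B-cell genes used to check the sort were high in both groups, with Cd79a, a chain of the B-cell receptor, at 13.29 ± 0.03 (SD, n = 4) in Sca1-HGAL and 13.40 ± 0.07 (SD, n = 4) in Control arrays. The median intensity of an array lay between 145.2 and 151.4. A pair of Control arrays, replicates 2 and 4, stood apart by their high level of Xist, a long RNA made from an inactive X, with 12.17 and 12.18 against 5.28 to 5.65 on the other 6 arrays. Sca1-HGAL replicate 3 correlated slightly better with the Control arrays (mean r = 0.993 across probe sets) than with its own group (0.991). Sca1-HGAL replicate 1 stood farthest from all others, with the lowest mean r to its own group (0.989) and to the Control arrays (0.988) and the lowest limma array weight (0.49). Results for the receptors are therefore also given without the Xist-high arrays and without replicates 1 or 3 of Sca1-HGAL.

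In Sca1-HGAL B cells 5 of the 7 receptors had lower levels than in Control cells, 1 had a higher level and 1 differed by less than its spread. No receptor passed limma at an adjusted p under 0.05 over all 21640 probe sets, where 0.00502% of genes did. The negative log2 folds ran from -0.64 for Slamf7 to -0.24 for Cd84, and Slamf6 had a positive one of 0.31. The median over the 7 receptors was -0.29, against 0.02 over all genes. At an unadjusted p under 0.05 there were 5 receptors on the lower side, where 4.03% of all genes stood, and 1 on the higher side, where 5.49% stood. In either direction this is 6 of 7 receptors beside 9.53% of all genes. Cd84 missed that threshold in 10 of 17 alternatives. For 4 receptors, Slamf1, Slamf7, Cd48 and Ly9, every Sca1-HGAL array lay below every Control array, as was the case for 2.37% of all genes, and for no receptor was the reverse true (3.1% of all genes). In a bulk sort, fewer cells of one B-cell subset and less RNA per cell cannot be told apart.

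**Figure D1:**
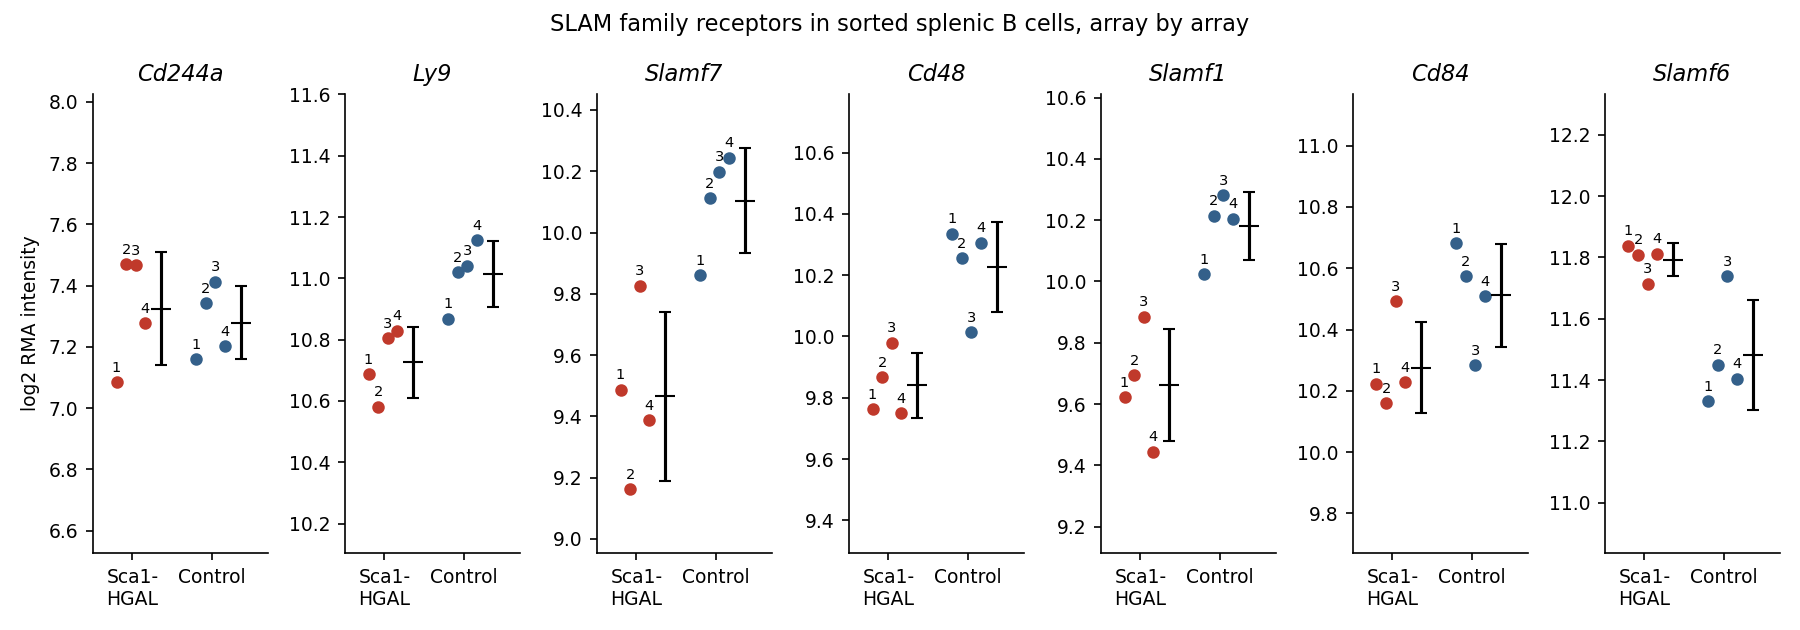
Log2 RMA intensity (vertical axis, the same span of 1.5 units in each panel) of the 7 SLAM family receptors on each of the 4 Sca1-HGAL arrays (red, left) and 4 Control arrays (blue, right), numbered by replicate, with the mean and SD beside each group. The groups do not overlap for Ly9, Slamf7, Cd48 and Slamf1, and overlap for Cd244a, Cd84 and Slamf6.

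The promoters of the receptors whose levels differed most are shown because these genes sit in 1 cluster and differ in direction. They are the 250 bases before the annotated start, from RefSeq on GRCm38.p6, and 6 of the 7 genes were matched there. Capitals mark each E-box, CANNTG, the motif of basic helix-loop-helix factors.
Slamf1 (chr1:171766882-171767131, plus strand): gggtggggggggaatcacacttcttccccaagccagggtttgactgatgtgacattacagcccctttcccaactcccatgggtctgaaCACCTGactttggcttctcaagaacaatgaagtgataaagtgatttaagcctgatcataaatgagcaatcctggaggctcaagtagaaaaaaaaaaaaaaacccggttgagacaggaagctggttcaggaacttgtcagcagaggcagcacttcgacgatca
Slamf7 (chr1:171649000-171649249, minus strand): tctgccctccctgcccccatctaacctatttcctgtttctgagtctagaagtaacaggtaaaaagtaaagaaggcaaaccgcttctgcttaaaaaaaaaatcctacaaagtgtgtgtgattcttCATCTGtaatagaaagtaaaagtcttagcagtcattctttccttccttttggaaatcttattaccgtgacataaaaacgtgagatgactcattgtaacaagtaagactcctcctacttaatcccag
Cd48 (chr1:171681742-171681991, plus strand): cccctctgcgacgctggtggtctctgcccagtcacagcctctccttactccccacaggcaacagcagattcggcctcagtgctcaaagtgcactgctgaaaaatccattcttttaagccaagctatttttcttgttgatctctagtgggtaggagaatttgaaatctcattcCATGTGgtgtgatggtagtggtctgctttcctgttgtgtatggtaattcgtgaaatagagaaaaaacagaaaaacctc
Slamf6 (chr1:171917212-171917461, plus strand): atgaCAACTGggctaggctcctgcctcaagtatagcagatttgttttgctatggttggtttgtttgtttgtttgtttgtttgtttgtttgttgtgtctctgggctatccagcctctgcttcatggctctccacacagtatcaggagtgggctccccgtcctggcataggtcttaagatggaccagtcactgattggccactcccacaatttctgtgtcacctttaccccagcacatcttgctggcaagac

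On both strands, an E-box was found in all 6 promoters searched, and in 66.2% of 32851 mouse promoters of the same length. Slamf1, Slamf7, Cd48 and Slamf6 had 1 each, 156, 120, 72 and 240 bases before the start. The short ETS core GGAA, which overlaps the NFAT core TGGAAA, stood in 5 of the 6 promoters, all but Slamf6, and in 93.4% of all promoters. TGGAAA was found for Slamf7 alone (18.6% of all promoters), and the RUNX motif TGTGGT for Cd48 and Cd84 (14.0%). TCACACCT of T-box factors and ATTTGCAT of octamer factors were in none of the 6, against 1.12% and 1.60% of all promoters. Nor were 4 motifs made of parts 2 bases apart: GGAA and GAAA for an ETS-IRF pair (2.30% of all promoters), GAAA and GAAA for interferon factors (2.98%), GGG and TTTCC for NF-kB (1.41%), and TCCC and GGGA for EBF (0.779%). These matches describe the letters of the windows only.

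Slamf1 (CD150), a self-binding receptor of activated B and T cells, was the receptor with the smallest p. Its levels were 9.62, 9.69, 9.89 and 9.44 on Sca1-HGAL arrays 1 to 4, against 10.02, 10.22, 10.28 and 10.20 on Control arrays 1 to 4. The lowest Control array lay 0.14 above the highest Sca1-HGAL array, the widest gap among the receptors. The means were 9.66 ± 0.18 in Sca1-HGAL and 10.18 ± 0.11 in Control arrays (SD, n = 4 each), a log2 fold of -0.52 with SE 0.10 and a limma adjusted p = 0.122. On the linear scale this is 0.70 times the Control level, with a 95% interval from 0.60 to 0.81. Of all genes, 48 had a smaller p.

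Slamf7 (CRACC, CS1), a self-binding receptor of NK cells and activated B cells that is abundant on plasma cells, had the lowest log2 fold of the family. Its levels were 9.49, 9.16, 9.83 and 9.39 on Sca1-HGAL arrays 1 to 4, against 9.86, 10.11, 10.20 and 10.24 on Control arrays 1 to 4. The groups were parted by 0.03 only, between Sca1-HGAL replicate 3 and Control replicate 1. The means were 9.47 ± 0.28 in Sca1-HGAL and 10.10 ± 0.17 in Control arrays (SD, n = 4 each), with a log2 fold of -0.64 with SE 0.14 and a limma adjusted p = 0.163. This is 0.64 times the Control level, with a 95% interval from 0.52 to 0.79, and 99.2% of all genes had a log2 fold of smaller size. Slamf7 also varied most among the receptors within the Sca1-HGAL group.

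Cd48, the ligand of CD244 and of CD2, is held in the membrane by a lipid anchor and has no signalling tail. Its levels were 9.76, 9.87, 9.98 and 9.75 on Sca1-HGAL arrays 1 to 4, against 10.34, 10.26, 10.01 and 10.31 on Control arrays 1 to 4. The groups were parted by 0.03, between Sca1-HGAL replicate 3 and Control replicate 3. The log2 fold was -0.39, with SE 0.09 and a limma adjusted p = 0.180, or 0.76 times the Control level, with a 95% interval from 0.67 to 0.87.

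The partner receptor Cd244a (2B4), best known from NK cells, was the dimmest member. Its levels were 7.08, 7.47, 7.47 and 7.28 on Sca1-HGAL arrays 1 to 4, against 7.16, 7.34, 7.41 and 7.20 on Control arrays 1 to 4. The groups overlapped wholly, with a log2 fold of 0.05 with SE 0.10 and a limma adjusted p = 0.929 and a 95% interval from -0.17 to 0.26. A fold of the size of Slamf1 or Slamf7 in the negative direction lay outside that interval. The signal was dim, however, and RMA shrinks folds of dim probe sets. The interval therefore holds for the array signal and may understate a change in RNA.

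Cd2, the other receptor that binds CD48, was at 11.64 ± 0.15 in Sca1-HGAL and 11.75 ± 0.07 in Control arrays (SD, n = 4 each), a log2 fold of -0.11 with SE 0.08 and a limma adjusted p = 0.726. The ligand thus had the larger difference by value, and whether it differed from that of its 2 receptors was not tested.

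Ly9 (CD229), a self-binding receptor that in mouse restrains innate-like lymphocytes, had levels of 10.69, 10.58, 10.80 and 10.83 on Sca1-HGAL arrays 1 to 4, against 10.87, 11.02, 11.04 and 11.13 on Control arrays 1 to 4. The groups were parted by 0.04. The log2 fold was -0.29, with SE 0.08 and a limma adjusted p = 0.286, or 0.82 times the Control level, with a 95% interval from 0.73 to 0.92.

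Cd84, a self-binding receptor that steadies contacts between T and B cells, had levels of 10.22, 10.16, 10.49 and 10.23 on Sca1-HGAL arrays 1 to 4, against 10.68, 10.57, 10.28 and 10.51 on Control arrays 1 to 4. The groups overlapped: 3 Sca1-HGAL arrays lay below every Control array, and replicate 3 did not. The log2 fold was -0.24, with SE 0.10 and a limma adjusted p = 0.502, or 0.85 times the Control level, with a 95% interval from 0.73 to 0.99.

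Slamf6 (Ly108), a self-binding receptor tied to B-cell tolerance in mouse, was the 1 receptor on the higher side. Its levels were 11.84, 11.81, 11.71 and 11.81 on Sca1-HGAL arrays 1 to 4, against 11.33, 11.45, 11.74 and 11.40 on Control arrays 1 to 4. Only Control replicate 3 reached into the Sca1-HGAL range, and 3 Sca1-HGAL arrays lay above every Control array. The means were 11.79 ± 0.05 in Sca1-HGAL and 11.48 ± 0.18 in Control arrays (SD, n = 4 each), a log2 fold of 0.31 with SE 0.09 and a limma adjusted p = 0.296. This is 1.24 times the Control level, with a 95% interval from 1.08 to 1.42.

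Slamf6 and Slamf1 therefore stood further apart within each Sca1-HGAL array than within each Control array. Slamf6 minus Slamf1, in log2 units, was 2.22, 2.11, 1.83 and 2.37 on Sca1-HGAL arrays 1 to 4, against 1.31, 1.23, 1.46 and 1.20 on Control arrays 1 to 4. The same difference between Slamf6 and its neighbour Cd84 was 1.62, 1.65, 1.22 and 1.58 in Sca1-HGAL, against 0.65, 0.88, 1.46 and 0.90 in Control arrays, where replicate 3 of each group crossed over. These pairs were chosen after the values were seen and were not tested.

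The arrays differed among themselves in a like way for several receptors. Of the 6 receptors with an unadjusted p under 0.05, the Sca1-HGAL array nearest to the Control mean was replicate 3 for 5, and replicate 4 for Ly9. The array farthest from it was replicate 2 for 3 receptors, replicate 4 for 2 and replicate 1 for 1. Among Control arrays, replicate 1 was lowest for Ly9, Slamf7, Slamf1 and Slamf6 and highest for Cd48 and Cd84, and replicate 3 was lowest for Cd48 and Cd84 and highest for Slamf6 and Slamf1. Without Sca1-HGAL replicate 3, Slamf1 (log2 fold -0.59) and Slamf7 (-0.76) passed limma, both at an adjusted p = 0.0452, and Cd48 reached 0.0886. In that fit 40 of 21640 probe sets passed, against 1 with no array left out. For these receptors replicate 3 was the Sca1-HGAL array nearest to the Control mean, so leaving it out had to enlarge their folds. Their passing is therefore no independent evidence of a difference. Without Sca1-HGAL replicate 1 the log2 folds were -0.51 for Slamf1, -0.65 for Slamf7, -0.36 for Cd48, -0.28 for Ly9, -0.22 for Cd84, 0.30 for Slamf6 and 0.13 for Cd244a, with limma adjusted p-values of 0.176 or more. Without any other single array no receptor passed.

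**Figure D2:**
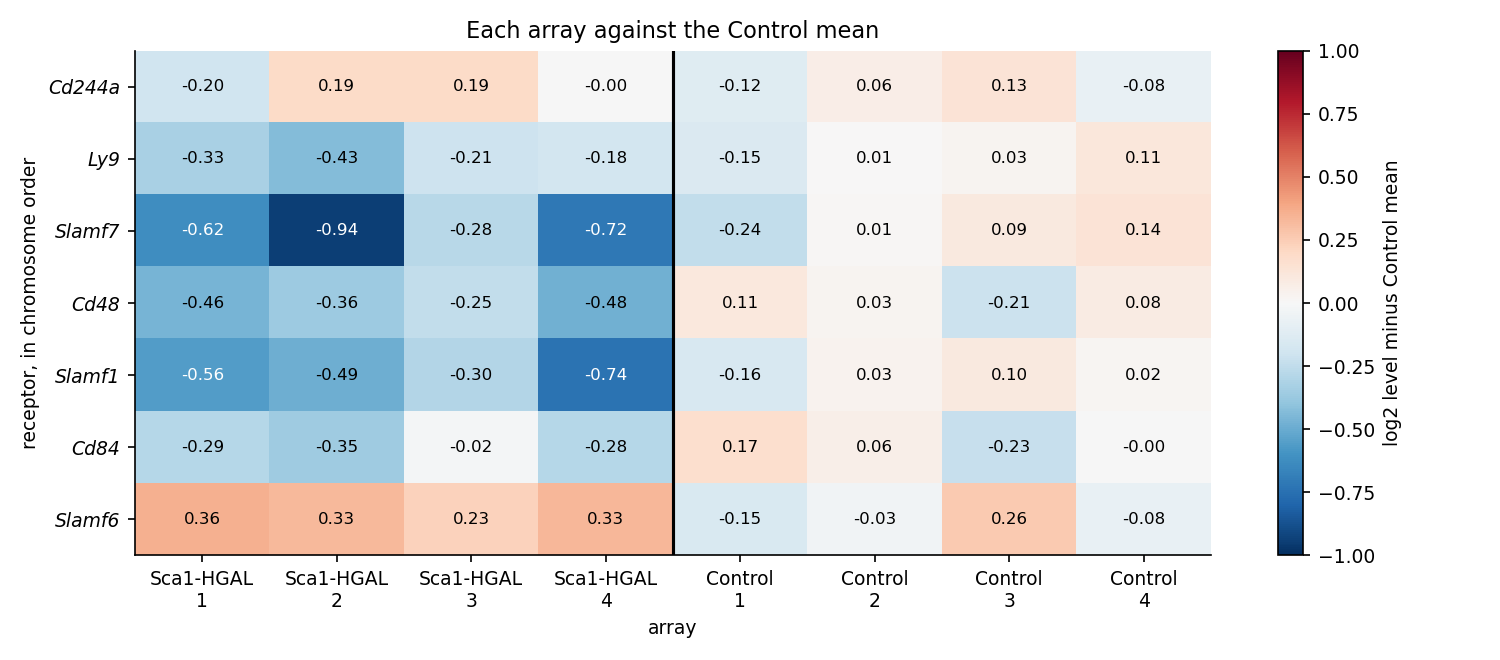
Log2 level of each receptor (rows, in their order on the chromosome) on each array (columns, Sca1-HGAL left of Control) minus the Control mean, in log2 units, with red for higher and blue for lower. The 4 Sca1-HGAL columns are negative for Ly9, Slamf7, Cd48, Slamf1 and Cd84 and positive for Slamf6, with the palest values mostly in Sca1-HGAL replicate 3.

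Without the Control arrays with high Xist, the directions of all 7 receptors were kept and the folds were smaller in size. Slamf7 had a log2 fold of -0.56, Slamf1 -0.49, Cd48 -0.33, Ly9 -0.23, Cd84 -0.21, Slamf6 0.26 and Cd244a 0.04. Slamf1, Slamf7, Cd48 and Ly9 still had every Sca1-HGAL array below both remaining Control arrays, as was the case for 6.49% of all genes in this comparison of 4 arrays with 2. With so few Control arrays the limma adjusted p was 0.505 or more for each, and 3 receptors had an unadjusted p under 0.05, as did 7.87% of all genes. The Xist-high arrays had the higher mean of the Control arrays for all 5 receptors on the lower side, for example 10.18 against 10.03 on the other Control arrays for Slamf7 and 10.21 against 10.15 for Slamf1. The part of sex in these differences was not tested further.

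In Control B cells the receptors held a high place in the array signal, apart from Cd244a. Probe sets differ in how strongly they bind, so these ranks order signals and not numbers of transcripts. Slamf6 stood at the 98.9th percentile of genes in Sca1-HGAL and at the 98.1st in Control arrays, as rank 230 and 370 of 19937. Ly9 stood at the 95.1st percentile in Sca1-HGAL and the 96.5th in Control arrays, and Cd84 at the 91.9th and 93.5th. The other 3 lay close together in Control arrays, with Cd48 at the 91.3rd, Slamf1 at the 90.9th and Slamf7 at the 90.3rd percentile, with mean levels of 10.23, 10.18 and 10.10 and SDs of 0.11 to 0.17. In Sca1-HGAL arrays these were at the 87.8th, 85.6th and 83.3rd percentile. Cd244a was at the 51.0th percentile in Sca1-HGAL and the 50.9th in Control arrays, near the middle of all genes.

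**Figure D3:**
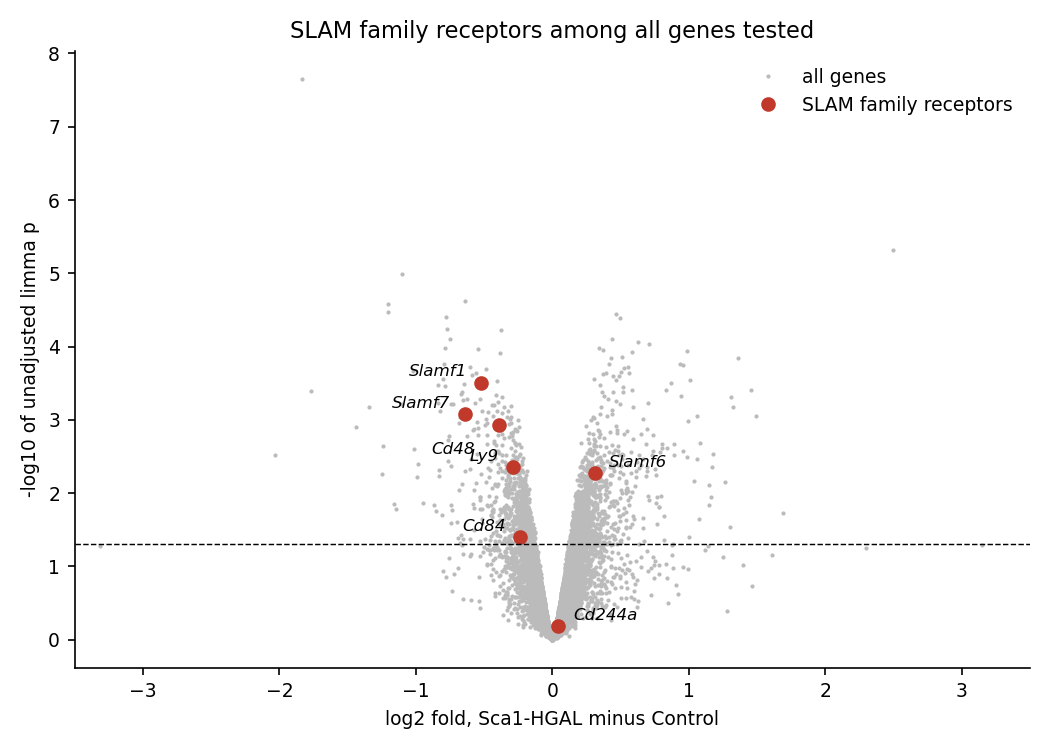
Log2 fold (horizontal axis, Sca1-HGAL minus Control) and -log10 of the unadjusted limma p (vertical axis) for 19937 genes (grey) with the 7 SLAM family receptors in red and the 0.05 threshold as a dashed line. Slamf1, Slamf7, Cd48, Ly9 and Cd84 lie above the line on the left and Slamf6 above it on the right, all among many other genes.

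Along chromosome 1 the order of the receptors is Cd244a, Ly9, Slamf7, Cd48, Slamf1, Cd84 and Slamf6, so the 5 negative log2 folds were those of the 5 inner genes, between Cd244a at 0.05 and Slamf6 at 0.31. Of 28 other genes within the cluster or among the 10 on each side of it, 13 were measured, all of them outside the cluster. None passed limma, none had groups without overlap, and their median log2 fold was 0.05. At an unadjusted p under 0.05, 3 were higher and 1 lower, beside 5.49% and 4.03% of all genes. Groups without overlap were found for 3.1% of all genes on the higher side and 2.37% on the lower. The gene next to Slamf6, Vangl2, a planar cell polarity protein, had -0.42 (SE 0.13, limma adjusted p = 0.330). Pea15a, a regulator of ERK signalling, had 0.35, F11r, a junctional adhesion molecule, 0.31 and Alyref2, an mRNA export factor, 0.28. On the other side, the nearest measured gene before Cd244a was Itln1, an intestinal lectin gene, at 0.05. The mice had a mixed background, and which strain's copy of the cluster each carried was not measured.

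**Figure D4:**
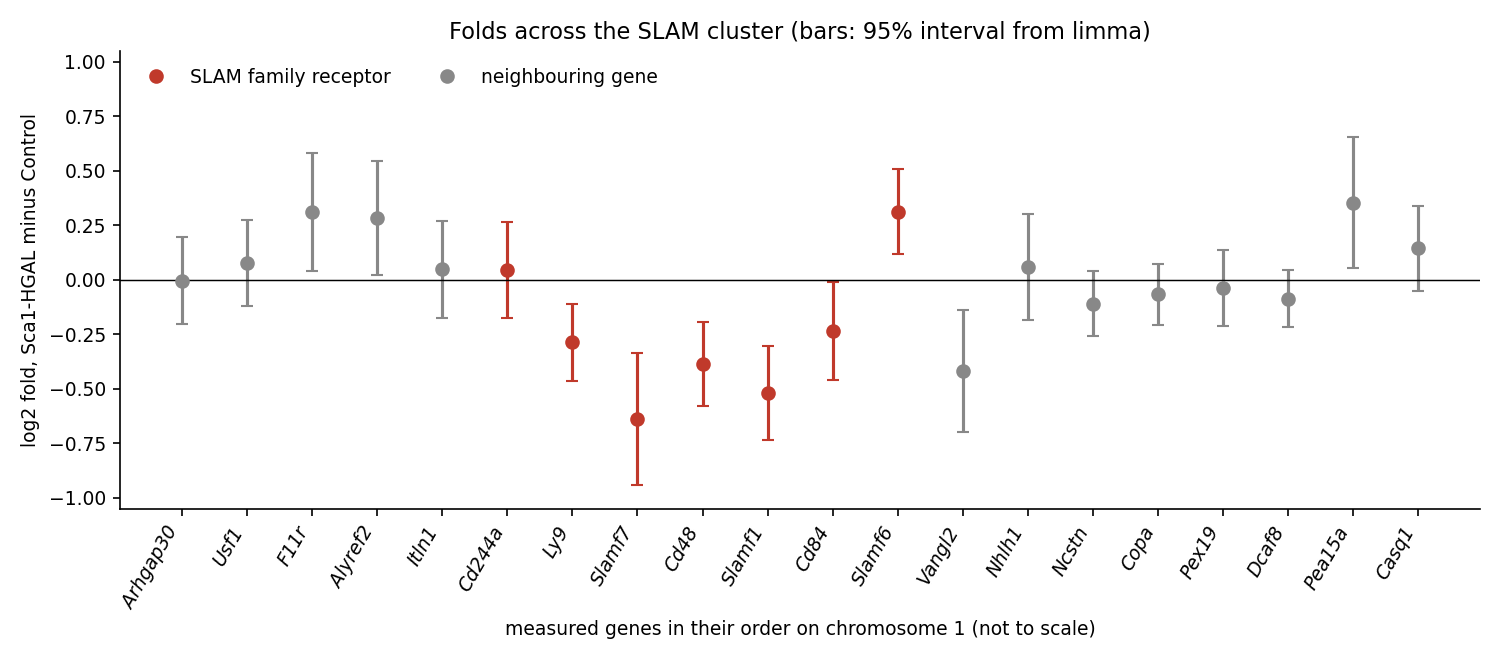
Log2 fold, Sca1-HGAL minus Control (vertical axis), with its 95% interval from limma, for the SLAM family receptors (red) and the measured neighbouring genes (grey) in their order on chromosome 1, evenly spaced. The negative folds of Ly9, Slamf7, Cd48, Slamf1 and Cd84 lie side by side, with Cd244a near 0 on one side and Slamf6 above 0 on the other.

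A pair of further SLAM genes lies apart from the cluster. Slamf8, a receptor of myeloid cells, was at 6.14 ± 0.18 in Sca1-HGAL and 6.24 ± 0.11 in Control arrays (SD, n = 4 each), with a log2 fold of -0.10 (limma adjusted p = 0.796). Slamf9 had levels of 8.68, 7.37, 7.34 and 7.42 on Sca1-HGAL arrays 1 to 4, against 7.40, 7.45, 7.43 and 7.29 on Control arrays 1 to 4. Its log2 fold of 0.31, with SE 0.26 and a limma adjusted p = 0.756, came from Sca1-HGAL replicate 1, as the other 3 arrays lay within the Control range.

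Of the 24 genes listed for signalling downstream of the receptors, 21 were measured, and none passed limma. Their median log2 fold was 0.00. At an unadjusted p under 0.05, 4 were higher and 0 lower, beside 5.49% and 4.03% of all genes. Sh2d1a, which encodes SAP, was at 5.76 ± 0.35 in Sca1-HGAL and 5.88 ± 0.05 in Control arrays (SD, n = 4 each), a low signal with a log2 fold of -0.11 (limma adjusted p = 0.857). Sh2d1b1, which encodes EAT-2, had 6.75, 7.60, 6.20 and 7.11 on Sca1-HGAL arrays 1 to 4, against 6.28, 6.55, 5.83 and 6.35 on Control arrays 1 to 4, a log2 fold of 0.66 with SE 0.26 and a limma adjusted p = 0.468. Its groups overlapped through Sca1-HGAL replicate 3. Sh2d1b2, the gene of the related adaptor ERT, had a log2 fold of 0.00 at a level of 5.07 in both groups. By sign, 10 of the genes were positive and 11 negative, from -0.31 for the kinase Prkcq to 0.66 for Sh2d1b1. Those with the smallest p were positive, with Sh2d1b1 among them. The others were the adaptor Grb2 at 0.19, the phospholipase Plcg1 at 0.29 and the phosphatase Ptpn11 (SHP-2) at 0.18. Each had a limma adjusted p of 0.399 or more. The groups did not overlap for 3 genes, Ptpn11 on the higher side and the exchange factors Vav2 (-0.13) and Arhgef7 (-0.10) on the lower. The last 2 and Prkcq were named after their values were seen. Of all genes, 3.1% had groups without overlap on the higher side and 2.37% on the lower.

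Over the 8 arrays, the genes whose levels ran most like those of a receptor were picked by Pearson r among 11025 genes with a mean log2 level of at least 7. For Slamf7 they were Chek2 (r = 0.989), Lpcat2 (0.968) and Sgms1 (0.962). For Slamf1 they were Bcar3 (0.978), Gpr155 (0.977) and Kmo (0.973), for Cd48 Maco1 (0.986), Ctsa (0.974) and Styx (0.971), and for Cd84 Zbtb11 (0.973), Zc3hav1 (0.969) and Mbtd1 (0.967). For Ly9 they were Ms4a4c (0.973), Atp6ap1 (0.966) and Ackr3 (0.960). These genes all had negative log2 folds, from -0.65 for Lpcat2 to -0.14 for Styx. For Slamf6 they were Mrpl55 (0.957), Coq9 (0.954) and Zfp524 (0.938), with positive log2 folds, and for Cd244a Krtap4-7 (0.975), Ppp3cc (0.949) and Kmt2b (0.945), with log2 folds of 0.07 or less. With 8 arrays that share 1 group difference, values of this size are a description, and no receptor was among the nearest genes of another.

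SLAM receptors are also made by T cells, NK cells, plasma cells, dendritic cells and platelets, so markers of these cells were read beside them. No marker passed limma, and RMA gives no value of 0, so a marker that is not expressed still has a low signal. Counts of markers at an unadjusted p under 0.05 stand beside 5.49% of all genes on the higher and 4.03% on the lower side. The summed intensity of the 12 measured T cell markers ran from 1620 to 3722 over Sca1-HGAL and from 2109 to 2751 over Control arrays, with a median log2 fold of 0.08 and 0 of 12 at an unadjusted p under 0.05. That of 10 NK cell markers ran from 697 to 1398 in Sca1-HGAL and from 977 to 1374 in Control arrays, with a median of -0.13, 2 lower and Gzma, a granule protease, at -0.77. Plasma cell markers, 9 in all, ran from 6127 to 9320 in Sca1-HGAL and from 6790 to 7778 in Control arrays, with a median of -0.03. By sign, 4 were positive and 5 negative. At an unadjusted p under 0.05, Sdc1 (CD138) was lower at -0.43 and Txndc5 higher at 0.45. Xbp1 at -0.09 (SE 0.08) and Jchain at 0.47 (SE 0.49) did not reach that threshold. Jchain had an SD of 1.14 among the Sca1-HGAL arrays.

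Plasmacytoid dendritic cells carry B220, while the sort also required CD22. They had 7 measured markers. Their sum ran from 3019 to 3898 in Sca1-HGAL and from 3219 to 3942 in Control arrays. The median log2 fold was -0.18, with 6 negative and 1 positive. At an unadjusted p under 0.05, 3 were lower, namely Ccr9 at -0.83, Siglech at -0.68 and Cd209d at -0.95. These 3 genes were dim, with group means of 6.02 to 7.94, and add little to the sum. For Ccr9 and Siglech every Sca1-HGAL array lay below every Control array, as for 2.37% of all genes. Dendritic cell markers ran from 3390 to 4801 in Sca1-HGAL and from 4366 to 5649 in Control arrays (median 0.06, 3 higher and 3 lower of 8). Most of each sum came from Ccr7, at 11.60 ± 0.28 in Sca1-HGAL and 12.01 ± 0.15 in Control arrays (SD, n = 4 each). Its log2 fold was -0.41 (limma adjusted p = 0.358), so the sums mainly follow this 1 gene. Itgax, Clec9a and Zbtb46 were far dimmer, with group means of 5.66 to 7.50. Which of the sorted cells gave the Ccr7 signal was not tested, so its fold is not a measure of dendritic cells. The 5 measured megakaryocyte and platelet markers were all positive (median 0.37, none at an unadjusted p under 0.05), with sums of 1248 to 2635 in Sca1-HGAL and 844 to 1443 in Control arrays. The 10 neutrophil markers were all positive (median 0.38), with 5 higher, beside 5.49% of all genes. Their sums were 929 to 2817 in Sca1-HGAL and 817 to 1422 in Control arrays. The 11 macrophage and monocyte markers had a median of -0.01, with sums of 2041 to 3026 in Sca1-HGAL and 2051 to 2847 in Control arrays, and 1 of them stood apart. Adgre1, a macrophage surface receptor, had levels of 8.67, 9.36, 8.55 and 8.61 on Sca1-HGAL arrays 1 to 4, against 7.83, 8.14, 7.54 and 7.63 on Control arrays 1 to 4. Its groups did not overlap, with a log2 fold of 1.01 with SE 0.19 and a limma adjusted p = 0.122. Its unadjusted p was smaller than that of any receptor. Groups without overlap were also found for the neutrophil markers Elane (0.40) and Mmp9 (0.34), both higher. Among dendritic cell markers they were found for Itgax (0.48) and Zbtb46 (0.22), higher, and Clec9a (-0.34), lower. Of all genes, 3.1% had groups without overlap on the higher side and 2.37% on the lower. The 6 mast cell and basophil markers had a median of -0.01, with sums of 373 to 394 in Sca1-HGAL and 361 to 387 in Control arrays. Of B-cell identity genes 10 were measured, with a median of -0.04 and sums of 72372 to 74859 in Sca1-HGAL and 75244 to 76826 in Control arrays. Every Sca1-HGAL sum thus lay below every Control sum. By sign, 8 of these genes were negative and 2 positive, with 0 at an unadjusted p under 0.05. For Cd79a the groups did not overlap, with Sca1-HGAL lower at a log2 fold of -0.11 (limma adjusted p = 0.571). The part of these cell types in the receptor levels was not tested.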

How the data were processed

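Total RNA of 4 Sca1-HGAL and 4 Control samples, grouped by their titles, was measured on 1-colour Affymetrix arrays. Deposited intensities come from RMA as run by the authors, according to the submitters' processing notes, and are linear, from 4.94 to 24302. Version, annotation and build were not given in the sources used here. Log2 was taken with no pseudocount and no filter. RMA draws arrays to a common distribution and shrinks folds of dim probe sets. Arrays carry no counts, and the 4 arrays per group limit precision. No pair of columns shared over 0.0604% of values, and all 8 arrays were used.

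Of 34760 probe sets, 21640 had 1 gene symbol, 1321 several and 11799 none in the platform table. For the 21640, limma 3.58.1 (R 4.3.3) fitted the 2 groups with lmFit and eBayes, two-sided, at a Benjamini-Hochberg adjusted p under 0.05. Tested on simulated data with independent probe sets (21640 probe sets, 10 draws), the fit recovered 98.4% of the probe sets given a log2 change of 1. The largest receptor log2 fold in size was -0.64, for Slamf7, so this share does not give the power at the receptors' folds. Many probe sets were changed in each draw, which eases the adjusted threshold, whereas only 1 probe set passed on the real arrays. On the real arrays Adgre1, at a log2 fold of 1.01, had a limma adjusted p = 0.122. Shares of all genes are over 19937 genes, each by its brightest probe set. Gene order came from the RefSeq table of GRCm38.p6, whose coordinates were not otherwise used, and promoter sequences from the RefSeq promoter table.

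The members, the 12 other lists (123 genes, 112 measured), the alternatives and the tests were chosen with earlier results of these data known. All members were named, and from each other list up to 4 genes with the smallest p, with the SAP family, Cd2, Slamf8 and Slamf9, and Xist. Itln1, Prkcq, Vav2 and Arhgef7 were named after their values were seen. For each member the 3 genes with the highest Pearson r were named. Tried as alternatives were median centring, a second quantile normalisation, array weights, a filter on dim probe sets, a trended robust prior, a replicate block, testing all rows, averaging a gene's probe sets, and leaving out the Xist-high Control arrays or each array.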

Additional observations from a re-analysis of the deposited data

Results flagged for a closer look

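Among 120 groups of 4 values checked, 8 had a single array far from the other 3, where chance gives about 6. None of them was a SLAM family receptor of the cluster. By log2 level, replicate 1 of Sca1-HGAL was highest for Slamf9 (8.68, others 7.34 to 7.42) and Gzma (6.41, others 6.09 to 6.13). Sca1-HGAL replicate 2 was highest for the phosphatase gene Ptpn11 (10.003, others 9.68 to 9.73) and the macrophage gene Adgre1 (9.36, others 8.55 to 8.67). Sca1-HGAL replicate 3 was lowest for Pacsin1 (8.12, others 8.27 to 8.30), and replicate 4 was highest for the platelet gene Gp9 (8.27, others 7.49 to 7.54). Control replicate 1 was lowest for Txndc5 (9.10, others 9.36 to 9.39), and Control replicate 2 was lowest for Cpa3 (5.17, others 5.54 to 5.55).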

How the results depend on the processing

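Over 17 alternatives, Slamf1, Slamf7, Cd48, Cd84 and Ly9 kept a negative and Slamf6 a positive log2 fold, and the median of the 7 receptors stayed between -0.34 and -0.23. No receptor passed limma as reported or in any alternative, except Slamf1 and Slamf7 without Sca1-HGAL replicate 3. That array was the nearest of its group to the Control mean for both, so larger folds without it were built in. Leaving out 1 array at a time gave log2 folds of -0.59 to -0.45 for Slamf1, -0.76 to -0.54 for Slamf7 and -0.0034 to 0.13 for Cd244a, whose sign turned without Sca1-HGAL replicate 2 or 3. It gave 0 to 2 receptors and 1 to 40 probe sets past the threshold, 40 being without Sca1-HGAL replicate 3. Against 1 probe set as reported, 12 passed with array weights, 6 with the replicate block, 2 when a gene's probe sets were averaged and 2 without the Xist-high arrays. The count of receptors at an unadjusted p under 0.05, 6 as reported, was 6 in 7 alternatives, 5 in 9 and 3 without the Xist-high arrays, where fewer arrays remain. Cd84 passed the unadjusted threshold in the fit as reported but missed it in 10 of the 17, with p from 0.0081 to 0.169 over them all, among them a second quantile normalisation (0.0528), the replicate block (0.0875) and testing all rows (0.0534). Same-numbered arrays did not deviate together (correlations of -0.16 to 0.05), which gives no sign of pairing but cannot exclude it. The labels do not say what the numbers mean, and with the replicate block 0 receptors passed. Signals near the floor of the array, such as Sh2d1a and Sh2d1b2, limit what their folds show. A like limit holds for the dim signal of Cd244a.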
